A study of Mus musculus with 6 samples.

Results

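Rab GTPases were followed at the transcript level in splenic B cells that were stimulated through TLR7. Members were all genes whose symbol is Rab, a digit and at most 3 further characters. This gave 60 of the 23420 symbols, of which 58 encode Rab GTPases and 2, Rab3ip and Rab3il1, encode exchange factors and were counted apart. A member was tested where its level reached 0.5 CPM (counts per 1e6 counts, a log2 CPM of -1) in at least 3 of 6 libraries, which left 43 Rab GTPase genes and both exchange factors among 11844 tested genes. B cells were bead-purified from spleens of 5- to 7-week-old TLR9-/- MRL/lpr mice, which by the study's methods were male and Tlr7+/+. MRL/lpr is a lupus-prone strain that carries the Fas lpr mutation. There were 3 libraries of cells left unstimulated and 3 of cells given CL097, a TLR7 agonist, at 5 µg/ml for 4 h, and both groups carried the replicate numbers 1 to 3, from 3 mice per the labels. All 6 libraries lacked TLR9, so the response of TLR9-sufficient cells was not measured here.

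Rab GTPases are small GTP-binding switches that give each intracellular membrane its identity. Bound to GTP they sit in a membrane and recruit effectors that move, tether and fuse vesicles, and bound to GDP they are drawn into the cytosol by GDP dissociation inhibitors. Guanine nucleotide exchange factors switch them on, and GTPase-activating proteins, most with a TBC domain, switch them off. In B cells this traffic carries internalized antigen and the nucleic-acid-sensing TLRs through endosomes, and it carries immunoglobulin out through the Golgi.

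B cell markers were present in every library, beside markers of other cell types. The 8 B cell markers summed to 6399 to 7289 CPM in unstimulated cells and to 2715 to 3211 CPM after CL097, and 6 of the 8 were called lower. The 6 T cell markers with values summed to at most 5.08 CPM and the 3 NK cell markers to at most 1.89 CPM in any library. Monocyte and macrophage markers summed to 108 to 405 CPM unstimulated and 76.0 to 204 CPM after CL097, with 4 of 7 called lower. Plasma cell markers summed to between 767 and 1299 CPM unstimulated and between 392 and 602 CPM with CL097, with 3 of 3 called lower. Neutrophil markers summed to between 24.5 and 59.4 CPM and between 14.1 and 41.3 CPM, with 3 of 5 tested called lower. The part of these marker changes in the Rab results was not tested. Both libraries of number 1 stood apart, with summed erythroid markers of 205 and 210 CPM against 4137 to 7436 CPM in the other 4. With CL097, the erythroid sums of numbers 2 and 3, 4572 and 7436 CPM, were above the B cell sums of 3211 and 2768 CPM. In every other library the erythroid sum was below the B cell sum. In RNA from a whole population, fewer cells of one type and less RNA per cell cannot be told apart. Read depth is unknown because the values are normalized log2 CPM, so no counting interval is given.

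The question was which Rab genes change their transcript level when B cells meet a TLR7 ligand. A gene was called where limma's Benjamini-Hochberg adjusted p, over all 11844 tested genes and with the replicate number as a block, was under 0.05 and the absolute log2 fold change was over 0.5. The Rab GTPase genes leaned towards lower levels. After CL097, 16 of 43 fell and 3 rose, while 24 were not called. Among all tested genes 25.8% were called lower, 25.9% higher and 51.7% in either direction, against 37.2%, 6.98% and 44.2% of the Rab GTPase genes. On the adjusted p alone, 23 Rab GTPase genes were lower and 6 higher, beside 33% and 33.6% of all tested genes. The unstimulated and CL097 libraries did not overlap in 24 Rab GTPase genes that were lower and 7 that were higher, beside 32.4% and 33.4% of all tested genes. Levels were lower in 3 of 3 pairs of libraries for 26 genes and higher in 3 of 3 for 9, beside 40.0% and 39.7% of all tested genes. The median log2 fold change was -0.37, against 0.00 for all tested genes.

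The summed level of the 58 Rab GTPase genes was 3251, 3076 and 3219 CPM in the unstimulated libraries. After CL097 it was 2766, 2644 and 2730 CPM. All CL097 sums were below all unstimulated sums.

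**Figure D1:**
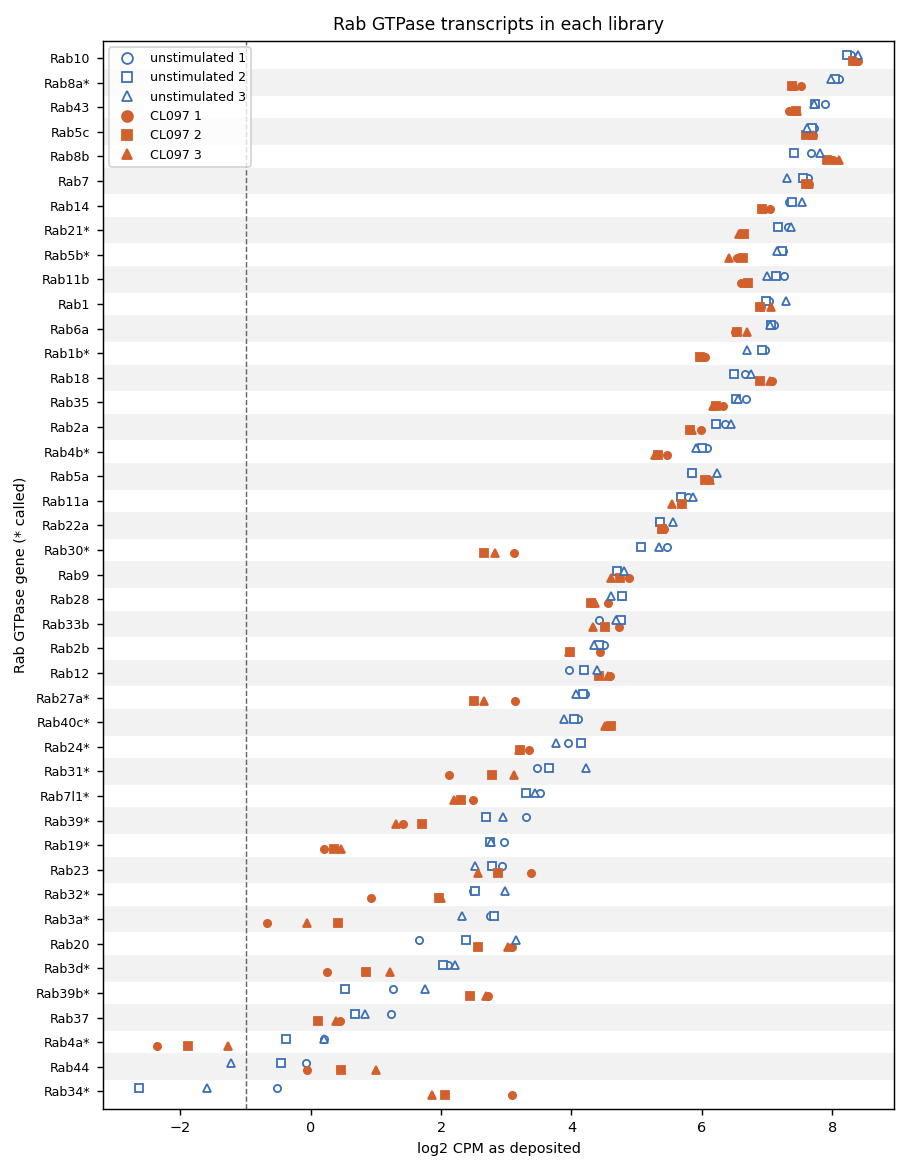
Level of each of the 43 tested Rab GTPase genes in every library, as deposited log2 CPM (horizontal axis), ordered by the mean of the unstimulated libraries. Open blue symbols are unstimulated and filled orange symbols CL097 libraries, the symbol shape gives the replicate number, asterisks mark called genes and the dashed line is the level filter at a log2 CPM of -1. The widest gaps between the groups are at Rab34, Rab3a, Rab19 and Rab30.

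Calls were more frequent among Rab genes of low level. Among the 13 Rab GTPase genes with a mean under 10 CPM, 9 were called (2 higher, 7 lower), beside 48.5% of all tested genes in that range. Of the 17 with a mean of 10 to 100 CPM, 7 were called, beside 53.1% of all tested genes. Of the 13 with a mean of 100 CPM or more, 3 were called, all lower, beside 53% of all tested genes. Spearman's rho between mean level and absolute log2 fold change was -0.61 over the 43 genes and -0.13 over all tested genes. It is given as a description, since genes of the same libraries share depth and are not independent, and low levels carry more noise. Rab34, Rab4a and Rab44 reached the level filter in only some libraries (Rab4a in 3 unstimulated and 0 CL097, Rab34 in 1 and 3, Rab44 in 2 and 3), and Rab34 and Rab4a are among the 9 calls. Without these 3, chosen after their values were seen, 7 of 10 genes under 10 CPM were called and rho was -0.54 over 40 genes.

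**Figure D2:**
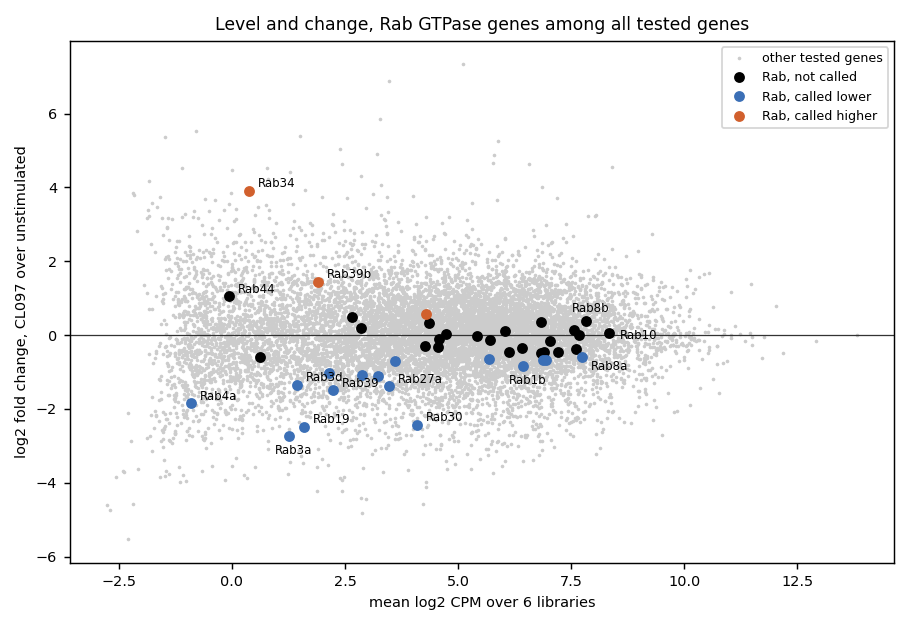
Mean log2 CPM over 6 libraries (horizontal axis) against the log2 fold change of CL097 over unstimulated (vertical axis) for all 11844 tested genes in grey, with the 43 Rab GTPase genes as large points. The 13 Rab genes with a mean of 100 CPM or more lie within 1 of 0, 3 of them called lower (Rab8a, Rab21 and Rab5b), and those beyond 1 on either side lie at the left and middle.

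Promoter sequence is shown for the 2 genes with the largest rises, Rab34 and Rab39b, and for Rab39, the paralog of Rab39b that moved the other way. Each is 300 bases, from 250 before to 50 after a RefSeq start (GRCm38.p6), 5′ to 3′ on the gene's strand, with the letters TGANTCA, the AP-1 motif, in capitals. The Rab34 sequence lies at chr11:78188177-78188476 on the plus strand, the Rab39b sequence at chrX:75578182-75578481 and the Rab39 sequence at chr9:53706183-53706482, both on the minus strand.
Rab34: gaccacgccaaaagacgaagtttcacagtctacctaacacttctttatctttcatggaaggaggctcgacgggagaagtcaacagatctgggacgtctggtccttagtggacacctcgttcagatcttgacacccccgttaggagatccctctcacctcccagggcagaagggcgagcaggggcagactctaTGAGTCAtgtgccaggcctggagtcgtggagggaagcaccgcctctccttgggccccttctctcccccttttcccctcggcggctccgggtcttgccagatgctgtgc
Rab39b: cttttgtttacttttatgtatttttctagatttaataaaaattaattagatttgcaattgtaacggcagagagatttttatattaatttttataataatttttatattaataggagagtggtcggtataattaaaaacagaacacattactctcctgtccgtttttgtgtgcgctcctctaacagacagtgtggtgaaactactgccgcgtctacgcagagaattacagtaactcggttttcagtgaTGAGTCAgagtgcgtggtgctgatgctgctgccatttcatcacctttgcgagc
Rab39: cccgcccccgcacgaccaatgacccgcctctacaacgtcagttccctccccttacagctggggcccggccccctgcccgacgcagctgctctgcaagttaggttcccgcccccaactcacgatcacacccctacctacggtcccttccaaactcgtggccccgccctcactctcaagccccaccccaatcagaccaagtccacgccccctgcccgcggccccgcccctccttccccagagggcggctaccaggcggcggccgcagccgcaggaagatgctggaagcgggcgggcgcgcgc

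The motif began at base 193 of the Rab34 window and at base 248 of the Rab39b window, and it is not in the Rab39 window. A further Rab34 start, chr11:78188498-78188797, has none of the 5 motifs searched. Promoter entries matched 48 of the 58 Rab GTPase genes by symbol or synonym, 37 of them tested. The motifs were searched on both strands and were AP-1, the E-box CACGTG, the ETS motif CCGGAAG, the CRE TGACGTCA and the NF-kB consensus. AP-1 letters were found for 2 of the 37 tested genes, Rab34 and Rab39b. These are 2 of the 3 genes called higher, beside 0 of 14 called lower and 0 of 20 not called. Rab34 passed the level filter mainly through its CL097 libraries, and no link of motif and call was tested. AP-1 letters occur in 7.81% of the 32851 mouse promoter windows. The NF-kB consensus occurs in 8.46% of all windows and was found for Rab11a and Rab28 alone, neither of them called. The E-box was found for 6 genes (7.15% of all windows), 3 of 14 called lower and 3 of 20 not called. The ETS motif was found for 4 (8.86%), 2 of 14 called lower and 2 of 20 not called. The CRE was found for Rab5a alone (1.79%), which was not called. A match describes letters in a window and is not evidence of binding.

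Members of the endoplasmic reticulum and Golgi included the largest rise and 2 falls of more than 5-fold. Of 11 tested, Rab34 rose, Rab19, Rab30 and Rab1b fell, and 7 were not called. The compartments hold 3 to 11 tested genes each, so their counts are descriptions, to be read beside the 25.8% lower and 25.9% higher among all tested genes. Rab34, which is known from Golgi, lysosome positioning and cilia, stood at 0.702, 0.161 and 0.331 CPM in the unstimulated libraries 1, 2 and 3. After CL097 it stood at 8.48, 4.17 and 3.62 CPM. All 3 CL097 libraries were above all unstimulated ones, with a log2 fold change of 3.91 ± 0.36 (SE, n = 3 pairs, adjusted p = 6.79e-05). Because Rab34 reached the level filter in 1 unstimulated and all 3 CL097 libraries, it could hardly be tested without differing. Its fold depends on unstimulated levels under 1 CPM, and with 1 CPM added before the logarithm the log2 difference was 2.14.

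Rab30 and Rab19 are Golgi-located relatives of the same branch of the family, and both fell more than 5-fold. Rab30 went from 44.2, 33.7 and 40.8 CPM to 8.65, 6.32 and 7.12 CPM. This was a fall by 2.43 ± 0.11 on the log2 scale, or 5.38-fold (adjusted p = 3.08e-06), and it had the smallest SE of the Rab genes that changed by more than 1 on the log2 scale. Rab19 went from 7.77, 6.70 and 6.83 CPM to 1.15, 1.28 and 1.39 CPM, a log2 fold change of -2.48 ± 0.22 (adjusted p = 6.04e-05). In both genes each CL097 library was far below each unstimulated one. Rab43, the remaining member of that branch with Golgi and phagosome roles, was at 237, 214 and 211 CPM and then at 162, 175 and 176 CPM. Its log2 fold change of -0.37 ± 0.08 passed the adjusted p (0.00403) but not the fold threshold. The annotation lists a transcript, Gm45140, that shares 4164 exon bases with Rab43 on the same strand, so reads of the pair cannot be told apart with certainty.

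Rab1b, which acts in transport from the endoplasmic reticulum to the Golgi, fell, and the fall was in every pair. It was at 126, 121 and 104 CPM unstimulated and at 66.3, 62.9 and 65.0 CPM with CL097, a log2 fold change of -0.85 ± 0.08 (adjusted p = 8.25e-05). Its paralog Rab1a, listed as Rab1, was at 130, 127 and 157 CPM and then at 120, 119 and 134 CPM. The Rab1 groups overlapped, and the log2 difference of -0.15 ± 0.07 was not called (adjusted p = 0.078). Rab6a, which drives retrograde traffic at the Golgi, was at 138, 133 and 133 CPM and then at 91.3, 92.9 and 103 CPM. All 3 CL097 values were lower, but the log2 difference of -0.49 ± 0.07 stopped just short of the fold threshold (adjusted p = 0.000812). Leaving out number 3 moved Rab6a to -0.56 and into the called genes, as cyclic loess normalization did at -0.51. Rab6a shares 19.0% of its exon bases with Mrpl48 on the opposite strand. Of the remaining members, Rab2a (-0.46) and Rab18 (0.36), known from lipid droplets, passed the adjusted p below the fold threshold, and Rab2b (-0.29) and Rab33b (-0.10) did not pass it. Without number 1, Rab2a was called at -0.51. Rab2b shares 59.3% and Rab33b 18.7% of its exon bases with a gene on the opposite strand.

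**Figure D3:**
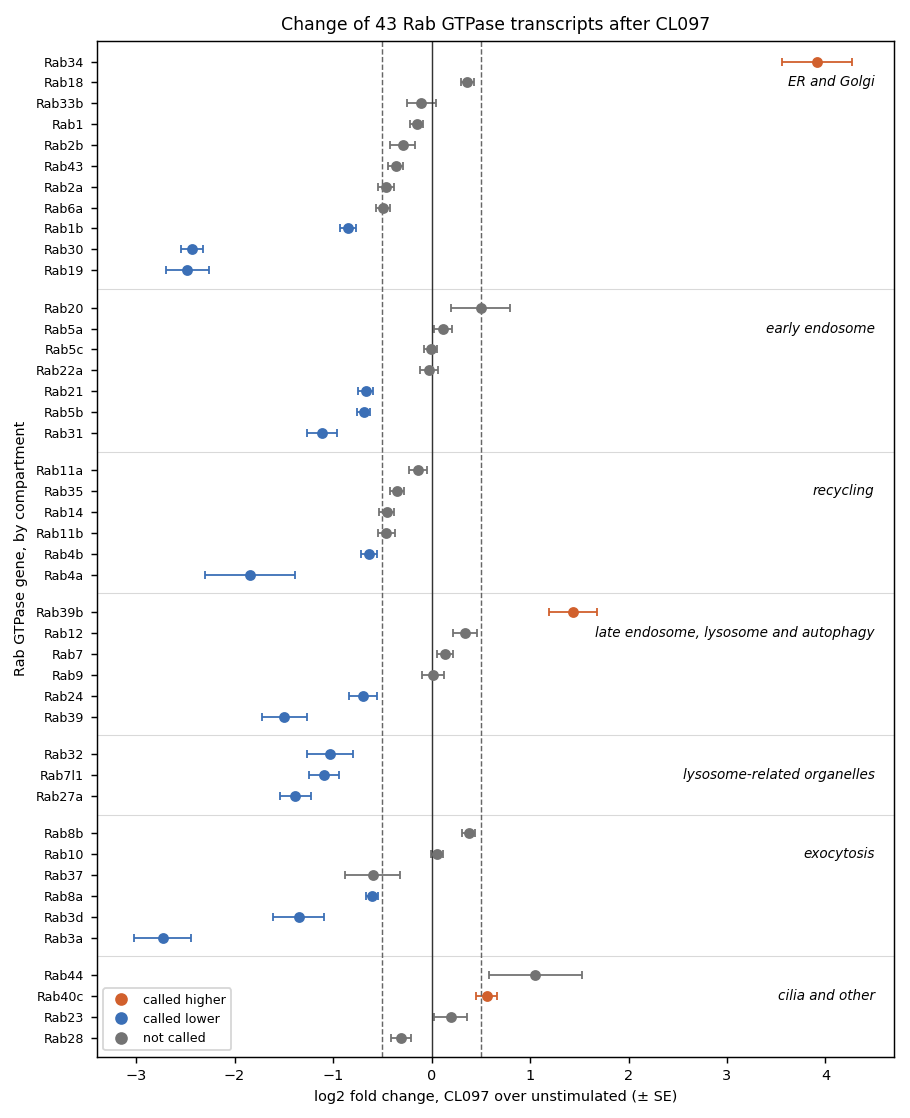
Log2 fold change of CL097 over unstimulated (horizontal axis, bars ± SE from limma over 3 pairs of libraries) for the 43 tested Rab GTPase genes, grouped by the compartment each is known for. Dashed lines mark the fold threshold at -0.5 and 0.5. All 3 genes of lysosome-related organelles lie left of -1, while early endosome, recycling and late endosome genes each include members close to 0.

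On early endosomes, where internalized cargo is first sorted, 3 of 7 tested members fell, none rose and 4 were not called. The Rab5 paralogs, which all serve fusion of early endosomes, did not move alike. Rab5b was at 152, 151 and 143 CPM and then at 92.6, 99.0 and 85.7 CPM, a log2 fold change of -0.69 ± 0.07 (adjusted p = 8.99e-05). Rab5c was at 211, 207 and 197 CPM and then at 209, 195 and 208 CPM, a log2 difference of -0.01 ± 0.06 (adjusted p = 0.91). Rab5a was at 56.9, 57.8 and 75.5 CPM and then at 68.7, 66.0 and 69.8 CPM, a log2 difference of 0.12 ± 0.09 (adjusted p = 0.31). Thus the CL097 libraries lay below the unstimulated ones in Rab5b and overlapped them in both other paralogs. Per kilobase of exon, Rab5c stood highest of all 43 genes unstimulated, at 93.4 CPM per kilobase.

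Rab21, which moves integrins through early endosomes, fell from 160, 144 and 165 CPM to 99.3, 99.9 and 95.2 CPM (log2 fold change -0.67 ± 0.07, adjusted p = 0.000179). Rab31, an early endosome and trans-Golgi relative of Rab22a, was at 11.0, 12.7 and 18.7 CPM and then at 4.36, 6.90 and 8.66 CPM. In each pair the CL097 library was lower, and the log2 fold change was -1.11 ± 0.15 (adjusted p = 0.000554). Rab31 was lowest in number 1 and highest in number 3 in both groups. Monocyte and macrophage markers had the same order, with 108, 291 and 405 CPM unstimulated and 76.0, 146 and 204 CPM with CL097, and their part in the fall of Rab31 was not tested. Rab22a differed by -0.02 ± 0.09 (adjusted p = 0.832). Rab20, an early endosome and phagosome gene, ranged from 3.16 to 8.89 CPM unstimulated and from 5.95 to 8.46 CPM with CL097, and was not called (log2 difference 0.50 ± 0.30, adjusted p = 0.175). Of its exon bases, 25.6% lie opposite another annotated transcript.

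Recycling members fell in part. Rab4a and Rab4b, which return cargo quickly from early endosomes to the surface, were both called lower, and none of the 6 tested recycling genes was called higher. Rab4b was at 67.4, 64.0 and 60.2 CPM and then at 44.3, 40.2 and 38.9 CPM, a log2 fold change of -0.64 ± 0.08 (adjusted p = 0.000271). It shares 1280 exon bases on the same strand with Gm21983, so its reads are not fully its own. Rab4a was at 1.15, 0.772 and 1.14 CPM and then at 0.196, 0.271 and 0.412 CPM, a log2 fold change of -1.85 ± 0.46 (adjusted p = 0.00933). Rab4a reached the level filter in 3 unstimulated and 0 CL097 libraries, so it too was tested only because one group was higher. With no level filter its adjusted p was 0.0573.

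Rab11b, of the recycling endosome, was at 153, 141 and 128 CPM and then at 97.5, 105 and 104 CPM. Every CL097 value was lower and the adjusted p was 0.00231, but the log2 difference of -0.46 ± 0.08 did not reach the fold threshold, except without number 3, where it was called at -0.54. Its paralog Rab11a was at 55.2, 51.6 and 58.4 CPM and then at 51.5, 52.1 and 46.6 CPM, and these groups overlapped (log2 difference -0.14 ± 0.09, adjusted p = 0.224). Rab14, which links Golgi and endosomes, was at 162, 167 and 186 CPM and then at 132, 122 and 123 CPM. Its log2 difference of -0.46 ± 0.08 (adjusted p = 0.00147) was likewise short of the fold threshold, and was called at -0.53 without number 1. Rab35, which recycles cargo to the plasma membrane, was at 102, 91.9 and 93.6 CPM and then at 79.9, 74.1 and 71.8 CPM (log2 difference -0.35 ± 0.07, adjusted p = 0.003). In these 3 genes every CL097 library was below every unstimulated one, and the mean difference was short of the threshold.

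Late endosome, lysosome and autophagy genes split. Rab7, which matures late endosomes and lysosomes, was at 198, 188 and 158 CPM and then at 201, 194 and 200 CPM. The groups overlapped, and the log2 difference was 0.14 ± 0.08 (adjusted p = 0.167). Rab9, which returns cargo from late endosomes to the trans-Golgi, was at 25.8, 26.0 and 27.9 CPM and then at 29.6, 26.9 and 24.4 CPM (log2 difference 0.02 ± 0.11, adjusted p = 0.892). Neither main late endosome gene was called. Rab24, an autophagy gene, was called lower at -0.70 ± 0.14, but 62.4% of its exon bases lie opposite exons of Prelid1 and the strand setting of the counting is not given in the sources used here, so its reads may be mixed. Rab12 was at 15.7, 18.3 and 21.0 CPM and then at 24.0, 21.5 and 23.6 CPM, a log2 difference of 0.34 ± 0.13 that passed the adjusted p (0.0467) but not the fold threshold.

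Rab39 (Rab39a), of late endosomes and phagosomes, fell while its paralog Rab39b, linked to autophagy, rose. Rab39 was at 9.83, 6.43 and 7.68 CPM and then at 2.67, 3.28 and 2.47 CPM, a log2 fold change of -1.50 ± 0.23 (adjusted p = 0.000931). Rab39b was at 2.39, 1.44 and 3.38 CPM and then at 6.59, 5.41 and 6.48 CPM, a log2 fold change of 1.44 ± 0.24 (adjusted p = 0.00158). In neither gene did the groups overlap. Rab39b shares 18.6% of its exon bases with Gm15063 on the opposite strand. In mm10 coordinates of the GENCODE M21 annotation, Rab39 lies on chromosome 9 from 53684110 to 53706232 and Rab39b on chromosome X from 75572046 to 75578231, both on the minus strand with 2 exons.

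Of lysosome-related organelles, the secretory lysosomes of pigment and immune cells, only 3 genes were tested, and all 3 fell. Rab27a, needed for release of lytic granules and exosomes, was at 18.5, 18.2 and 16.7 CPM and then at 8.80, 5.70 and 6.33 CPM (log2 fold change -1.38 ± 0.16, adjusted p = 0.000203). Rab29, listed as Rab7l1 and a partner of the kinase LRRK2, was at 11.5, 9.86 and 10.9 CPM and then at 5.60, 4.94 and 4.57 CPM (log2 fold change -1.09 ± 0.15, adjusted p = 0.000624). Rab32, which builds such organelles, was at 5.59, 5.76 and 7.92 CPM and then at 1.90, 3.92 and 4.01 CPM (log2 fold change -1.03 ± 0.24, adjusted p = 0.00675). No CL097 library of these genes reached the lowest unstimulated one. With no level filter the adjusted p of Rab32 was 0.0876, and without number 1 its log2 fold change was -0.77. Rab32 was lowest in number 1 and highest in number 3 in both groups, as the monocyte and macrophage markers were. The part of these markers in the fall of Rab32 was not tested. The relatives Rab27b, at most 0.594 CPM, and Rab38, at most 0.574 CPM, were too low to be tested.

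In the exocytosis group, Rab3a and Rab3d, known from regulated release of vesicles and granules, fell with Rab8a. Rab3a was at 6.69, 7.05 and 4.99 CPM and then at 0.627, 1.33 and 0.964 CPM. This was the deepest fall among the 43 genes, by 2.73 ± 0.29 on the log2 scale (6.64-fold, adjusted p = 0.00015). Rab3d was at 4.32, 4.09 and 4.63 CPM and then at 1.19, 1.79 and 2.32 CPM, a log2 fold change of -1.35 ± 0.26 (adjusted p = 0.0029, or 0.0518 with no level filter). Both genes were separated between the groups in all libraries. Rab10, which carries cargo to the plasma membrane, was at 313, 299 and 338 CPM and then at 336, 319 and 329 CPM. Those groups overlapped (log2 difference 0.05 ± 0.06, adjusted p = 0.474), and per kilobase Rab10 followed Rab5c closely, at 90.2 CPM per kilobase unstimulated. Rab37 was not called (log2 difference -0.60 ± 0.28, adjusted p = 0.0935), except in the fit without a variance trend (adjusted p = 0.0114).

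Rab8a and Rab8b, close paralogs in transport to the cell surface, moved apart. Rab8a was at 275, 264 and 253 CPM and then at 184, 167 and 170 CPM, a log2 fold change of -0.60 ± 0.06 (adjusted p = 9.7e-05). Rab8b was at 205, 171 and 224 CPM and then at 259, 241 and 275 CPM, a log2 difference of 0.38 ± 0.07 that passed the adjusted p (0.00183) and not the fold threshold. Within each unstimulated library Rab8b was below Rab8a, and within each CL097 library above it. The log2 ratio of Rab8b to Rab8a was -0.43, -0.63 and -0.17 unstimulated and 0.50, 0.53 and 0.69 with CL097, so it shifted by 0.98. The ratio of Rab39b to Rab39 shifted by 2.94, from -1.80 ± 0.53 to 1.14 ± 0.36 (SD, n = 3), that of Rab5c to Rab5b by 0.68 and that of Rab1b to Rab1 by -0.70. For each of these 4 pairs the groups did not overlap, and a two-sided exact permutation test over the 6 libraries gave p = 0.1, the smallest it can give with 3 against 3, so no ratio could pass 0.05. Ratios did not overlap in 11 of the 17 paralog pairs in which both genes were tested, a share close to that of single genes, 33.4% above and 32.4% below.

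**Figure D4:**
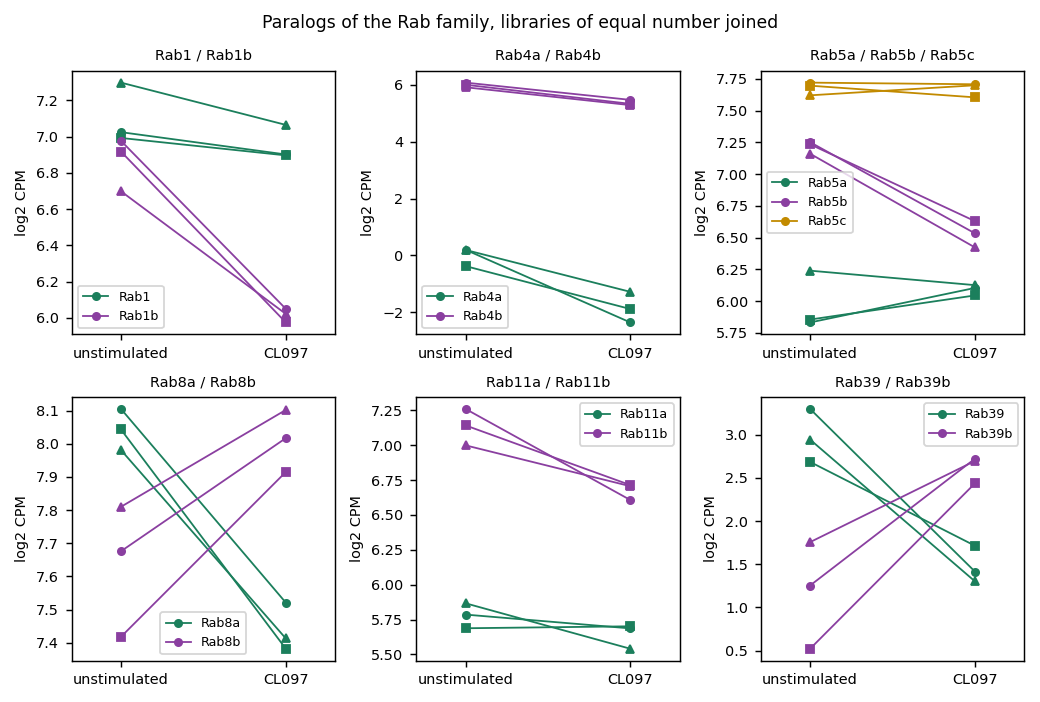
Log2 CPM (vertical axis, a different range in each panel) of 6 sets of Rab paralogs, with libraries of equal replicate number joined and symbol shape giving the number. Lines cross for Rab8a and Rab8b and for Rab39 and Rab39b, run downward for both Rab4 genes, and run nearly level for Rab5a and Rab5c beside a falling Rab5b.

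Coding sequences of the 17 pairs, taken from GENCODE M21 transcripts, were 59.8% to 79.3% identical. The longest run of equal bases was 38, between Rab1 and Rab1b. That is shorter than the reads of the study. Of the 17 pairs, 8 had the same result in both genes and 1, Rab39 with Rab39b, had opposite calls. The 8 include Rab11a with Rab11b, Rab2a with Rab2b and Rab5a with Rab5c, in which neither gene was called. Several pairs share a gene, so the pairs are not independent.

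Among the other 4 tested members, Rab40c, whose protein carries a SOCS box of ubiquitin ligases, rose modestly. It was at 17.1, 16.4 and 14.7 CPM and then at 23.5, 24.4 and 22.9 CPM, with no overlap and a log2 fold change of 0.56 ± 0.11 (adjusted p = 0.00284). Rab44, a large Rab with EF hands that acts in mast cell granule release, was at 0.945, 0.726 and 0.430 CPM and then at 0.963, 1.37 and 2.00 CPM. The difference was not called (1.06 ± 0.47 on the log2 scale, adjusted p = 0.0849), but without number 1 it was called at 1.57. The cilia genes Rab23 (0.19) and Rab28 (-0.31) were not called either.

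The exchange factors gave different results. Rab3ip (Rabin8), which activates Rab8, was at 16.7, 13.3 and 15.6 CPM and then at 19.3, 15.9 and 13.4 CPM (log2 difference 0.08 ± 0.14, adjusted p = 0.629). Rab3il1 (GRAB) was at 1.14, 10.3 and 13.2 CPM and then at 1.87, 22.3 and 38.4 CPM. It was higher with CL097 in each pair but far lower in number 1 than in numbers 2 and 3, and the groups overlapped. The paired log2 fold change was 1.13 ± 0.19 (adjusted p = 0.00162), while without the replicate block the adjusted p was 0.466. Erythroid markers showed the same split by number, at 205, 5226 and 4137 CPM and then at 210, 4572 and 7436 CPM summed, and their part in the values of Rab3il1 was not tested.

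The untested members were 15 Rab GTPase genes. The highest level any of them reached in any library was 0.594 CPM, in Rab27b, and 10 of them never exceeded 0.2 CPM. They were Rab3b, Rab3c, Rab6b, Rab9b, Rab13, Rab15, Rab17, Rab25, Rab26, Rab27b, Rab33a, Rab36, Rab38, Rab40b and Rab42. Just inside the level filter lay Rab37, Rab44 and Rab4a, whose highest log2 CPM reached in at least 3 libraries was 0.68, -0.05 and -0.37. Just outside lay Rab27b, Rab38 and Rab25, at -1.56, -1.73 and -1.95. Rab27b was at 0.338, 0.296 and 0.594 CPM and then at 0.262, 0.138 and 0.343 CPM. Rab38 was at 0.214, 0.207 and 0.353 CPM and then at 0.301, 0.574 and 0.0306 CPM, and Rab25 ranged from 0.0783 to 0.32 CPM. Rab7b was not analysed here.

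The genes that drive the Rab cycle were called in both directions, and the count of each list stands beside 25.9% higher and 25.8% lower among all tested genes. Of 7 general factors described, all tested, Gdi2 and Rabac1 fell, Rabggtb rose and 4 were not called. Gdi2, the GDP dissociation inhibitor that draws Rabs off membranes, fell from 2312, 1931 and 2250.5 CPM to 608, 573 and 567 CPM (log2 fold change -1.89 ± 0.07, adjusted p = 1.29e-06). Rabac1 (-0.79), a membrane protein that counteracts GDP dissociation inhibitors, fell less. Rabggtb, the catalytic subunit of the transferase that attaches the lipid anchors of Rabs, rose from 44.9, 54.4 and 49.7 CPM to 114, 119 and 115 CPM (log2 fold change 1.23 ± 0.08, adjusted p = 1.02e-05). Its partner subunit Rabggta differed by -0.01 ± 0.10 (adjusted p = 0.955). The escort proteins Chm (-0.23) and Chml (-0.16) and the guanine-release factor Rabif (0.16) were not called.

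Of 48 tested exchange factors, 8 rose and 10 fell. The largest rises were in Dennd3, an activator of Rab12 (38.9 ± 3.17 to 204 ± 15.6 CPM, SD, n = 3, log2 fold change 2.39), in Ric1, listed as C030046E11Rik and part of the Rab6 activator (97.7 ± 5.63 to 393 ± 17.7 CPM, 2.01), and in Sbf2 (1.60). The deepest falls were in Rin3, an activator of Rab5 and Rab31 (124 ± 15.3 to 23.8 ± 0.676 CPM, -2.37), Dennd1c (-1.83) and Dennd6a, an activator of Rab14 (-1.54). Of 36 tested TBC domain GTPase-activating proteins, 5 rose and 13 fell. Tbc1d10c, known as carabin, fell from 103 ± 5.97 to 9.25 ± 2.12 CPM (log2 fold change -3.50 ± 0.13, adjusted p = 1.57e-06), followed by Rabgap1l (-2.08) and Tbc1d14 (-2.00). The largest rises there were in Tbc1d24 (1.39), Tbc1d16 (1.38) and Sgsm3 (1.24). Tbc1d24 went from a mean of 1.81 to 4.94 CPM and Tbc1d16 from 1.36 to 3.51 CPM. With no level filter neither was called (adjusted p = 0.0513 and 0.0542).

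Of 47 tested effectors, 9 rose and 16 fell. Lrrk2, the kinase recruited by Rab29, fell from 356, 351 and 311 CPM to 31.2, 40.9 and 36.5 CPM (log2 fold change -3.24 ± 0.10, adjusted p = 1.07e-06). Mical1, an actin-oxidizing enzyme that binds several Rabs, fell by 2.96 on the log2 scale, and Unc13d (Munc13-4), a Rab27 effector of granule release, fell by 1.71. Sytl3, a synaptotagmin-like protein that also binds Rab27, rose from 2.27, 1.15 and 1.62 CPM to 36.7, 28.3 and 30.9 CPM (log2 fold change 4.30 ± 0.18, adjusted p = 2.11e-06). Rab27a itself fell, while Unc13d and Sytl3 moved in opposite directions. The next rises were in Osbpl1a (1.39) and Micall2 (1.14). Osbpl1a was not called without number 3 (adjusted p = 0.0704) or with no level filter (adjusted p = 0.136). Micall2 was not called without the replicate block, without number 2, without number 3, with no level filter or with no variance trend.

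Over the 4 lists together, 23 of 138 tested genes rose (16.7%) and 41 fell (29.7%), beside 25.9% and 25.8% of all tested genes, and their median log2 fold change was -0.16. The Arf, Arl and Sar GTPases, the other small GTPases of membrane traffic, had 3 of 25 higher and 3 lower with a median of 0.15. Those higher were Arl4c (1.26), Sar1b (0.71) and Arl5a (0.57), and those lower were Arl5c (-1.91), Arl4d (-1.68) and Arl10 (-0.78). These medians stand beside -0.37 for the Rab GTPase genes and 0.00 for all tested genes, and no list was tested against another.

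**Figure D5:**
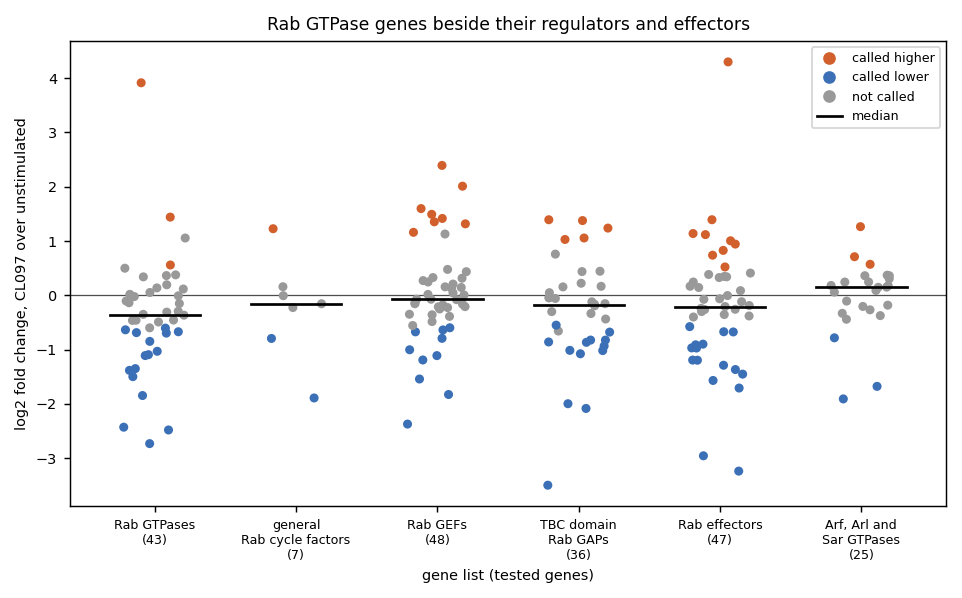
Log2 fold change of CL097 over unstimulated (vertical axis) for each tested gene of 6 lists, with the number of genes in parentheses and black bars at the medians. Orange points were called higher, blue points lower and grey points not called. The Rab GTPase median lies at -0.37 and the Arf, Arl and Sar median at 0.15, and Sytl3 at 4.30 and Tbc1d10c at -3.50 are the ends of the range.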

How the data were processed

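RNA was measured in 3 unstimulated and 3 CL097 libraries of bead-purified B cells. The deposited values are log2 CPM. Per the labels and the study's methods, the authors made them with FastQC 0.11.7, Trim Galore 0.6.5, STAR 2.6.1a on mm10, featureCounts of Subread 2.0.1 and voom with quantile normalization in limma. Libraries came from a stranded kit, whereas neither the annotation nor the counting's strand option is given in the sources used here. The deposited log2 values sum to 991009 to 999204 CPM per library once raised to the power of 2, and 10906 to 10997 genes reach 1 CPM. In 1599 of 23420 genes both libraries of every number hold equal values that differ between numbers, so a shift shared by a number is present in the deposited values. Such a shift cancels in paired differences and enters differences between numbers.

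Genes at log2 CPM of -1 or more in 3 of 6 libraries were fitted with limma 3.58.1 (R 4.3.3) with group and replicate number, a variance trend and Benjamini-Hochberg adjustment over all 11844 tested genes. Calls needed an adjusted p below 0.05 with a log2 fold change beyond 0.5 either way. The fit was also run on simulated data in which few genes changed, unlike these data, so that run does not show how the fit performs here. The numbers were used as pairs by plan. Deviations from the group means correlated at 0.57, 0.33 and 0.46 between libraries of equal number, all over 0.1, and at -0.48 to 0.21 otherwise. The shift shared by a number in the deposited values can give such correlations, so they cannot show what a number marks. Whether a number marks a mouse is not stated. CPM are 2 to the power of the deposited values and SDs are over 3 libraries. Members and lists were chosen with earlier results of these data known. Named with values in every library were the called genes with the 8 largest rises and 8 largest falls, where they averaged 1 CPM or more, a set of endosomal, secretory and Golgi members whatever their change, members that are no GTPase genes and the 3 members on each side of the level filter. One gene of the lists is not reported here and was left out of their counts. Lists give the remaining general factors and the 3 largest changes each way. Roles are background knowledge. Sequences are from RefSeq (GRCm38.p6) and overlaps from GENCODE M21. Alternatives were no block, each number left out, a pseudocount of 1, no and a stricter level filter, cyclic loess, median centring, no variance trend, a robust prior and other fold thresholds.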

Additional observations from a re-analysis of the deposited data

How the results depend on the processing

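The split of the Rab GTPase genes held under the alternatives. Leaving out each number gave 3 to 4 genes higher and 16 to 18 lower, and a median log2 fold change of -0.40 to -0.36. Among all tested genes, leaving out number 1, 2 or 3 gave 3126, 2819 or 2859 higher and 3157, 2749 or 2757 lower. With no level filter, 3 Rab GTPase genes were higher and 13 lower, beside 2514 higher and 2441 lower among all genes fitted. Without the replicate block, 3 Rab GTPase genes were higher and 16 lower, and 2837 of all tested genes were higher and 2799 lower. Of the regulator and effector lists, 19 genes were then higher and 39 lower. The block changed no call of a Rab GTPase gene, but Rab3il1 lost its call (adjusted p = 0.466). A fold threshold of 1 on the log2 scale gave 2 Rab GTPase genes higher and 10 lower, and 19 regulators and effectors higher and 22 lower. Among all tested genes it gave 1647 higher and 1727 lower. With no fold threshold, 6 Rab GTPase genes were higher and 23 lower, and 35 regulators and effectors were higher and 55 lower. Among all tested genes, 3979 were then higher and 3912 lower. Apart from the fold thresholds, 16 of 19 called Rab GTPase genes kept their call in every setting they were fitted in, and the exceptions, Rab32, Rab4a and Rab3d, lost it with no level filter, as Rab3il1 did (adjusted p = 0.0513). Rab4a could not be fitted under the stricter level filter, which it does not reach. Of the 24 that were not called, 18 stayed so.

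These p-values rest on 3 pairs of libraries. Each gene's spread between the pairs was combined by limma with a value drawn from genes of similar level. An SE or p-value thus does not measure that gene's spread between pairs alone. Unknown read depth limits what can be said of genes near 1 CPM, where Rab34, Rab4a and Rab44 lie. The scaling of the deposited values sets all changes relative to the bulk of genes. Cyclic loess and median centring left the Rab counts within 1 gene. The deposited values were already quantile normalized, so these settings could move little and do not test that scaling. Markers of other cell types were detected and differed between numbers.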
